A study of Mus musculus with 4 samples.

Results

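The small proline-rich protein (Sprr) genes measured here were 7 genes of mouse chromosome 3: Sprr1a, Sprr1b, Sprr2a3, Sprr2b, Sprr2d, Sprr2h and Sprr3. They were taken by symbol from the 56980 genes in the tables, which hold 17 Sprr symbols in all, and they were selected on an earlier comparison of their UMIs (unique molecular identifiers, 1 per captured RNA) between TKO and Ctrl keratinocytes of these libraries. Their difference between the genotypes is therefore given as a description, with no test.

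SPRR proteins are precursors of the cornified envelope, the protein shell that replaces the plasma membrane of keratinocytes as they die at the skin surface. Transglutaminases cross-link them, through glutamine and lysine residues at their ends, to loricrin, involucrin and other envelope proteins. Their genes lie within the epidermal differentiation complex, a cluster of genes used in terminal differentiation, and they are known to be induced in stressed, wounded or inflamed epithelia.

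The libraries came from dorsal skin of mouse embryos labelled E16.5, with 2 embryos per genotype and 1 library per embryo. All 4 embryos were Suv39h1 f/f, Suv39h2-/- and Setdb1 f/f and all were exposed to tamoxifen. Ctrl embryos were K14CreERT2- and kept the floxed alleles, whereas TKO embryos were K14CreERT2+, so that tamoxifen activates Cre in cells that use the keratin 14 promoter, the basal keratinocytes and their progeny. Suv39h1, Suv39h2 and Setdb1 encode methyltransferases that place the repressive mark H3K9me3, and the Ctrl animals already lacked Suv39h2. The study describes recombination in its TKO single-cell libraries as mosaic, and its list of litters gives another embryonic day for these libraries than the labels do. Cells positive for Epcam and α6 integrin, a gate for basal cells, were sorted, and 3′ ends were counted with the 10x Genomics v3 kit.

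The files held 19789 barcodes with 309291898 UMIs, of which 10764 cells were kept and 9208 were keratinocytes, 1581 to 2990 per library. The keratinocytes were placed in classes by markers after clustering them without any Sprr gene: 5174 basal-like cells, 2058 differentiating-like cells (the suprabasal cells of the comparison) and 1829 hair follicle-like cells. The median was 21963 and 17331 UMIs per keratinocyte in Ctrl and 30066 and 28052 in TKO, so TKO keratinocytes held more UMIs per cell. The cause of this was not tested. Levels are given as CPM, the UMIs of a gene scaled to the same total of UMIs in every library and class. Each UMI stands for 1 captured 3′ end, so levels were not divided by gene length. Library pairs shared 2 to 12 barcodes. The differentiating markers fixed for the class (8 genes, Krt1 and Krt10 among them) summed to 48662 and 43050 CPM in differentiating-like cells of Ctrl and 22854 and 36037 CPM in those of TKO, against at most 1022 CPM in basal-like cells. The sort was for basal cells, so the differentiating-like cells are those that passed the gate and need not stand for the whole suprabasal epidermis.

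The targeted genes were checked first. Setdb1 was at 67.6 and 58.3 CPM in Ctrl keratinocytes and at 39.5 and 42.4 CPM in TKO keratinocytes, with a log2 change of -0.64 (adjusted p = 0.0494, edgeR quasi-likelihood test with Benjamini-Hochberg adjustment over all genes). Suv39h1 did not pass the test (log2 change -0.17, adjusted p = 0.467), and Suv39h2 was counted at 13.9 to 22.3 CPM in all 4 libraries. 3′ reads need not lie in the deleted exons, so these levels bear on the labels only in part. Over all keratinocytes, 3.91% of the 19981 genes tested rose in TKO and 2.23% fell.

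All 7 genes have 2 exons in the annotation (GENCODE vM39, GRCm39) and lie within chr3:92192724-92393208, a span of 200.5 kb. The Sprr2 members run on the plus strand in the order Sprr2a3, Sprr2b, Sprr2d and Sprr2h, and Sprr1b, Sprr3 and Sprr1a follow on the minus strand. The 250 bases before the annotated start are printed for 4 of them, Sprr1b and Sprr1a because they were the most abundant members in differentiating-like cells, Sprr2h for its low Ctrl count, and Sprr2a3 because most Sprr UMIs of TKO basal-like cells were its own. The sequences were read from the GRCm39 genome, 5′ to 3′ on the strand of the gene, and capitals mark the AP-1 letters TGANTCA and the TATA letters TATAAA. Sprr1b lies at chr3:92346097-92346346 (minus strand), Sprr1a at chr3:92393209-92393458 (minus), Sprr2h at chr3:92292742-92292991 (plus) and Sprr2a3 at chr3:92192474-92192723 (plus).
Sprr1b: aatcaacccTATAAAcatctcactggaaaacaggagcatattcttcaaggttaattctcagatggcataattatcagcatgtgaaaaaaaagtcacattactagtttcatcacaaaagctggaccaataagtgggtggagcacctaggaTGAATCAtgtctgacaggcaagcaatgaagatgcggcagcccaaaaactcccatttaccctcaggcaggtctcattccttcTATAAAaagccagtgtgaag
Sprr1a: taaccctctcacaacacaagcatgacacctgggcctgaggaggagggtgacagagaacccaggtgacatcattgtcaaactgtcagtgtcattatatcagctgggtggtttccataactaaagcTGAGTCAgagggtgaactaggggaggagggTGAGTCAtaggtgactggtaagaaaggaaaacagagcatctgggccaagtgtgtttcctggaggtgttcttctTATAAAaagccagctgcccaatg
Sprr2h: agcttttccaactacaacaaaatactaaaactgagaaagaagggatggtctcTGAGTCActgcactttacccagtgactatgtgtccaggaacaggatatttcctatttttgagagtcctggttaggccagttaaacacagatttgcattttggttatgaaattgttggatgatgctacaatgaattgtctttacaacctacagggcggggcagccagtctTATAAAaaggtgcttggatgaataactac
Sprr2a3: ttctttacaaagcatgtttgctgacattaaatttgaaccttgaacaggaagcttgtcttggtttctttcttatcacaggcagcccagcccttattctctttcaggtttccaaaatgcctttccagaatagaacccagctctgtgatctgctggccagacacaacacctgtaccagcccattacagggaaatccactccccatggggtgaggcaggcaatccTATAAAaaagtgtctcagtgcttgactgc

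AP-1 factors, dimers of Fos and Jun proteins, are known regulators of Sprr genes in keratinocytes. The AP-1 letters, which read TGANTCA on either strand, stood in the promoters of 5 of the 7 members, against 6.17% of the 21770 promoters of the same length. Sprr1a held them at 126 and 96 bases before the start, Sprr1b at 101, Sprr2h at 198, Sprr2d at 193 and Sprr2b at 110. Sprr2a3 and Sprr3 held none in this window. The TATA letters (TATAAA, both strands) stood in 6 of 7 members, all but Sprr2b, against 11.9% of promoters. In Sprr2a3, Sprr2d, Sprr2h and Sprr3 they began 29 bases before the start. The letters TGACNNNGC, part of the element read by the oxidative stress factor NRF2, were found in Sprr1a alone, where they overlap the first AP-1 match (9.69% of promoters held them), and the interferon response element (ISRE) in no member (3.32% of promoters). The promoters of Sprr2d and Sprr2h were the most alike pair, with 65.0% of bases identical. A match is a description of letters and shows no bound factor.

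Among the differentiating-like keratinocytes, Sprr1b carried most of the Sprr UMIs. Sprr1b was at 106 CPM (2398 UMIs) and 41.3 CPM (513 UMIs) in Ctrl and at 643 CPM (5392 UMIs) and 931 CPM (13264 UMIs) in TKO. Both TKO libraries stood above both Ctrl libraries, with means of 73.7 ± 45.8 and 787 ± 204 CPM (SD, n = 2 each), a ratio of 10.7 (log2 3.42). Ctrl replicate 1 set the Ctrl mean, and without it the log2 ratio was 4.25. Sprr1a, its closest relative among the members, was at 4.73 and 8.61 CPM in Ctrl and 50.2 and 68.6 CPM in TKO, a ratio of 8.90 (log2 3.15). The groups did not overlap for Sprr1a either, but its log2 ratio was 1.98 when cells needed 3000 genes and 2.10 when the components were not corrected for library.

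The Sprr2 members were far less abundant in the same cells. Sprr2a3 was at 3.50 and 2.09 CPM in Ctrl and 10.9 and 38.2 CPM in TKO, a ratio of 8.79 (log2 3.14) that fell to log2 1.96 without TKO replicate 2 and rose to 3.78 without TKO replicate 1. Sprr2h was counted at 6 and 2 UMIs in Ctrl and at 57 and 186 UMIs in TKO, a ratio of 46.5 (log2 5.54). Sprr2d had 3 and 0 UMIs from Ctrl, against 18 and 38 UMIs from TKO, a ratio of 36.3 with an exact 95% interval of 9.39 to 144 for counting error only. Sprr2b, with 0 UMIs in both Ctrl libraries and 4 and 6 UMIs in TKO, was at least 5.24-fold higher in TKO, taking 3 counts over the Ctrl group as the limit that a count of 0 allows. No UMI of Sprr3 was found in differentiating-like cells. In this class, both TKO libraries thus lay above both Ctrl libraries for 6 of 7 members, where 31.0% of the 14487 genes tested did so. Since the members were listed on this comparison, nothing is read from that count. The 7 members summed to 115 and 52.2 CPM in Ctrl and 713 and 1054 CPM in TKO (log2 ratio 3.40, and 4.08 without Ctrl replicate 1). Of the 7 members, 5 passed the filter on low counts in this class, 3 among basal-like and 1 among hair follicle-like cells. Over all keratinocytes the members summed to 40.2 and 16.9 CPM in Ctrl and 136 and 306 CPM in TKO, and both TKO libraries lay above both Ctrl libraries for 6 of the 7 (29.2% of genes tested). The log2 ratio of that sum was 2.95, or 3.70 without Ctrl replicate 1 and 2.25 without TKO replicate 2. In Ctrl replicate 2, 265 of the 972 member UMIs came from 2 cells of the periderm-like cluster described below. In Ctrl replicate 1, 103 of 2747 came from 1 such cell.

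In basal-like keratinocytes of TKO most Sprr UMIs belonged to Sprr2a3, whereas those of Ctrl held few UMIs of any member. Sprr2a3 had 22 and 5 UMIs in Ctrl (0.674 and 0.160 CPM) and 783 and 1234 UMIs in TKO (22.4 and 42.0 CPM). The TKO libraries stood above the Ctrl libraries, and the ratio of the means was 77.2 (log2 6.27), or log2 7.66 without Ctrl replicate 1 and 5.58 without Ctrl replicate 2. Sprr1b was at 0.613 and 0.415 CPM in Ctrl and 1.14 and 2.14 CPM in TKO, levels that are read as background further on. Sprr1a overlapped between the genotypes, with 2 and 17 UMIs from Ctrl, against 11 and 12 from TKO. Sprr2b, Sprr2d and Sprr2h had at most 1 UMI in any basal-like library, and Sprr3 had none. Both TKO libraries stood above both Ctrl libraries for Sprr2a3 and Sprr1b, 2 of the 7 members (29.6% of the 17648 genes tested), and the members' sum was at 1.35 and 1.12 CPM in Ctrl and 23.9 and 44.6 CPM in TKO.

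In hair follicle-like cells of TKO the same gene was the most abundant member, at a lower level. Sprr2a3 had 2 and 6 UMIs from Ctrl, against 86 and 95 UMIs from TKO, at 0.160, 0.454, 10.6 and 10.1 CPM, a ratio of 33.6 (log2 5.07). Without Ctrl replicate 2 its log2 ratio was 6.01. In TKO replicate 2, 1 cell held 48 of the 95 UMIs, and without it the level was 4.98 CPM. In TKO replicate 1, 1 cell held 22 of the 86 UMIs, and without it the level was 7.86 CPM. Sprr1b overlapped between the genotypes, with 3 and 5 UMIs from Ctrl, against 2 and 26 from TKO, and without TKO replicate 2 its log2 ratio turned from 2.28 to -0.33. Sprr1a overlapped too, with 1 and 13 UMIs from Ctrl, against 1 and 0 from TKO. Sprr2a3 was the 1 member of 7 with both TKO libraries above both Ctrl libraries (25.8% of the 15478 genes tested).

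**Figure D1:**
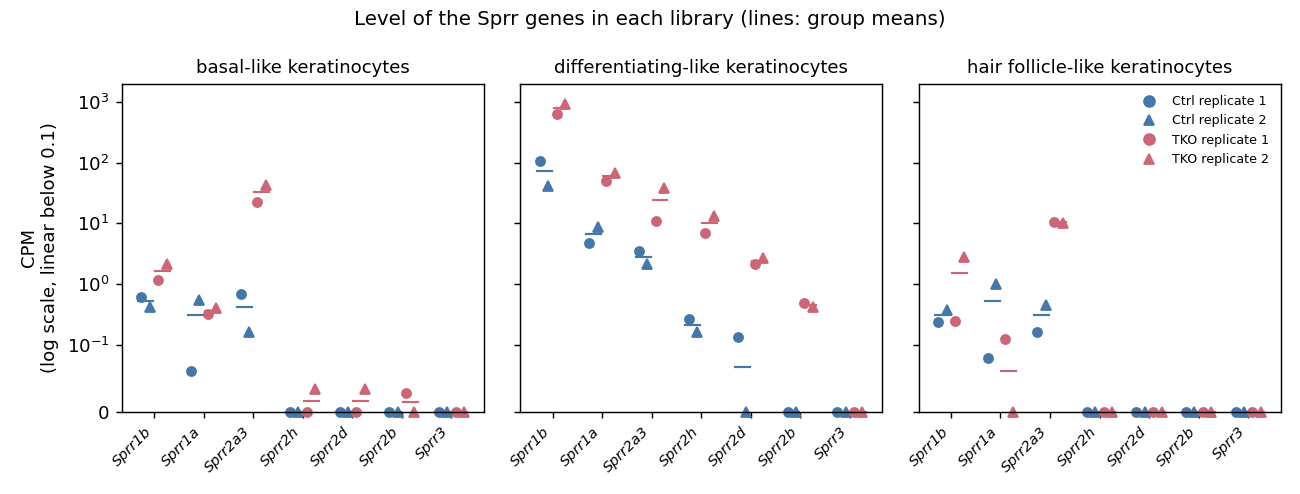
Level of each Sprr gene in basal-like, differentiating-like and hair follicle-like keratinocytes, in CPM on a log axis that is linear below 0.1. Each point is 1 library (circles replicate 1, triangles replicate 2), short lines are group means, and Sprr2a3 is the member for which the TKO points lie above the Ctrl points in all 3 classes.

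Sprr2a3 has near-identical neighbours, and its counts carry that uncertainty. Of the 90-base words in the last 500 bases of its annotated transcript, 43.8% occurred in no other Sprr transcript, whereas the share was 0% for Sprr2a1 and Sprr2a2 and 100% for each of the other members. Sprr2a1 and Sprr2a2 were counted at 0.151 and 0.295 CPM and at 0.0754 and 0.258 CPM in TKO keratinocytes and at no more than 0.0293 CPM in Ctrl. Reads from the words that the 3 Sprr2a genes share cannot be assigned to 1 of them, so values given for Sprr2a3 may hold or miss reads of its copies.

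The share of cells with a UMI was compared after every cell was thinned to 5000 UMIs, because TKO keratinocytes held more UMIs per cell. Sprr1b was found in 16.4% and 6.09% of differentiating-like cells of Ctrl and in 29.5% and 55.1% of those of TKO (30.4%, 17.2%, 41.8% and 68.5% before thinning). The exact 95% intervals were 14.0 to 19.1%, 4.26 to 8.41%, 23.8 to 35.8% and 50.2 to 59.9%, and they cover counting error over cells, not the spread between embryos. The libraries of 1 genotype also stood apart from each other. UMIs per positive differentiating-like cell were 9.52 and 5.29 in Ctrl and 54.5 and 45.4 in TKO at full depth. Both measures were higher in both TKO libraries than in either Ctrl library.

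Sprr2a3 was found in 0.138% of 1454 and in 0 of 1671 basal-like cells of Ctrl, and in 7.69% (6.14 to 9.47%) and 9.79% (8.0 to 11.8%) of those of TKO. For the 0 of 1671 cells of Ctrl replicate 2 the exact 95% upper limit was 0.22% at 5000 UMIs per cell. Before thinning the shares were 0.884%, 0.296%, 23.3% and 26.7%. Differentiating-like cells gave 0.966%, 0.538%, 4.22% and 11.5%, and hair follicle-like cells 0%, 0.143%, 2.41% and 2.0%. Fibroblast-like and immune-like cells of the same libraries, which should lack Sprr genes, had 0 cells with Sprr2a3 at this depth in each library. The largest set was 0 of 275 cells, with an exact 95% upper limit of 1.33% at that depth. Their median was 13103 to 18276 UMIs per cell against 17253 to 30261 in basal-like cells. At full depth, 29 and 19 melanocyte-like cells of TKO held 2 and 3 Sprr2a3 UMIs and those of Ctrl none. Fibroblast-like cells of TKO replicate 2 held 1 UMI at full depth. For Sprr1b the fibroblast-like and immune-like cells gave 0 to 2.18%, and its share in basal-like cells, 0.180 to 1.34%, did not exceed that range. For Sprr1a they gave 0 to 0.493%, against 0 to 0.288% in basal-like cells. The Sprr1b and Sprr1a levels of basal-like cells are therefore read as background. The intervals cover counting error only.

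**Figure D2:**
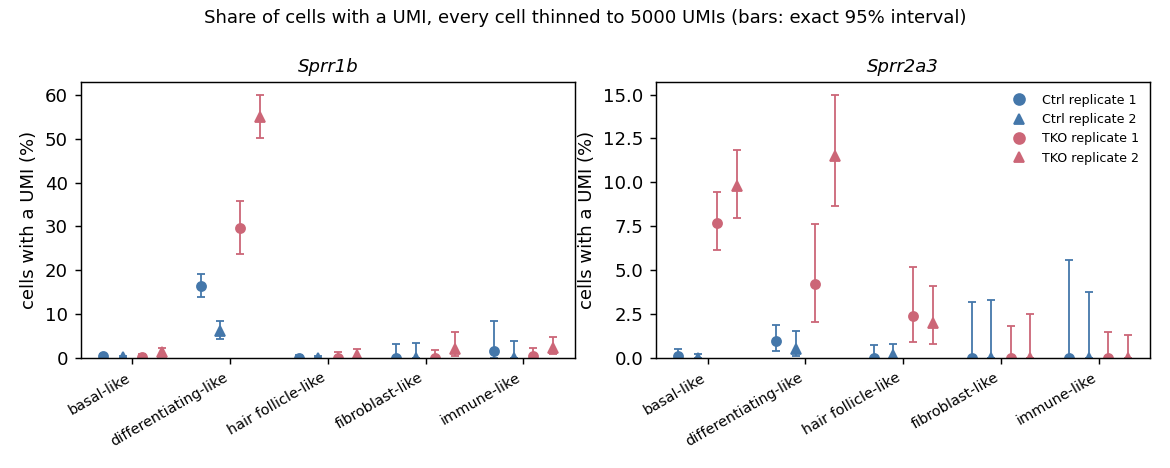
Share of cells with at least 1 UMI of Sprr1b (left) and Sprr2a3 (right) in each library, every cell thinned to 5000 UMIs, with exact 95% binomial intervals as bars. Sprr1b lies at 16.4 and 6.09% in differentiating-like cells of Ctrl and 29.5 and 55.1% in those of TKO and at no more than 1.34% in basal-like cells, whereas Sprr2a3 lies at 7.69 and 9.79% in basal-like cells of TKO and at 0% in fibroblast-like and immune-like cells.

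Within each class the UMIs were spread unevenly. In TKO basal-like cells Sprr2a3 was found in 243 of 1044 and 259 of 971 cells at full depth, with at most 23 and 82 UMIs in a cell, and the top 10% of cells held 78.5% and 81.2% of its UMIs. For Sprr1a in TKO replicate 2, 1 differentiating-like cell held 526 of 977 UMIs, and without it the level was 31.6 instead of 68.6 CPM, still above both Ctrl libraries. The same cell held 87 of the 186 Sprr2h UMIs and 1494 UMIs of Lor (loricrin). All 18 Sprr2d UMIs of TKO replicate 1 and 28 of the 38 of TKO replicate 2 also came from single cells, so that the Sprr2d values rest on very few cells.

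Most Sprr1b UMIs came from 1 of the 5 differentiating-like clusters, the one led by Ly6g6c, Calm4 and Lor, which was singled out after its values were seen. It held 210, 110, 44 and 108 cells in Ctrl replicates 1 and 2 and TKO replicates 1 and 2, or 25.3%, 19.5%, 18.6% and 25.4% of the class. Sprr1b was at 265 and 137 CPM there in Ctrl and at 2204 and 2172 CPM in TKO. Sprr1a was at 9.07 and 7.79 CPM in Ctrl and 135 and 185 CPM in TKO, and Sprr2h at 0.667, 0.677, 15.2 and 35.8 CPM. Single cells held 130 of the 249 Sprr1a UMIs there in TKO replicate 1 and 526 of the 760 in TKO replicate 2. The latter cell also held 87 of the 147 Sprr2h UMIs. The TKO libraries stood above the Ctrl libraries for each of these genes. In the other differentiating-like clusters Sprr1b was at 27.0 and 11.5 CPM in Ctrl and 202 and 427 CPM in TKO, so the difference was also present outside that cluster. Sprr2a3 did not follow this order, with 7.58 and 19.0 CPM in that cluster of TKO and 11.8 and 46.1 CPM in the others.

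Levels per cluster were taken with the 2 libraries of a genotype summed. The TKO libraries gave unequal shares of cells to the clusters, and the part of this in the order of clusters was not tested. Across the clusters of TKO, Sprr1b ran from 16.8 to 2182 CPM in differentiating-like clusters and stayed at 0.536 to 4.82 CPM in the 8 basal-like clusters. Sprr2a3 ran from 1.21 to 46.8 CPM in basal-like clusters, highest in the one led by the mitotic genes Cenpa, Ccnb2 and Cdc20, from 2.68 to 40.0 CPM in differentiating-like clusters, and from 0.946 to 28.1 CPM in hair follicle-like clusters, highest in the one led by Dkk4 and Edar, genes of the hair placode. In Ctrl no basal-like cluster exceeded 1.59 CPM for Sprr2a3. The cluster with the lowest Sprr2a3 level among TKO basal-like cells also had the second lowest median depth of all keratinocyte clusters, 9615 UMIs per cell.

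**Figure D3:**
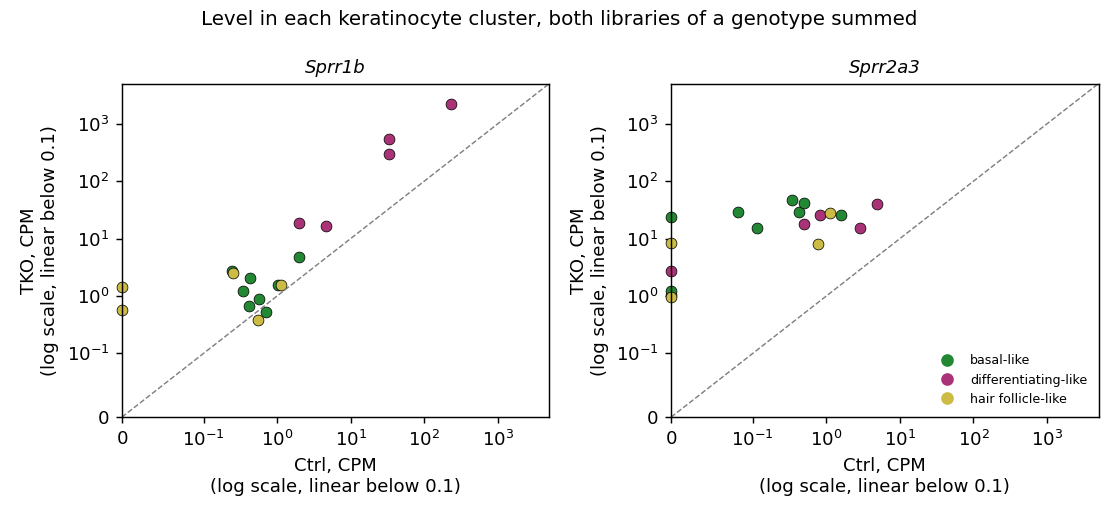
Level of Sprr1b (left) and Sprr2a3 (right) in each keratinocyte cluster, Ctrl on the x axis and TKO on the y axis, in CPM on log axes that are linear below 0.1, with the 2 libraries of a genotype summed. Points are clusters coloured by class, and the dashed line marks equal levels; Sprr1b ran from 16.8 to 2182 CPM in differentiating-like clusters of TKO and did not exceed 4.82 CPM in its basal-like clusters, while Sprr2a3 reached up to 46.8 CPM in basal-like, 40.0 CPM in differentiating-like and 28.1 CPM in hair follicle-like clusters of TKO.

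The difference between cell classes was not used in choosing the genes, and it was tested within each genotype with the library as a block (edgeR quasi-likelihood test, Benjamini-Hochberg adjustment over 17338 genes). In Ctrl, where 29.6% of all genes tested were higher in differentiating-like than in basal-like cells, Sprr1b (mean 73.7 against 0.514 CPM, adjusted p = 9.358e-07) and Sprr2a3 (2.79 against 0.417 CPM, log2 3.02, adjusted p = 0.00336) passed the edgeR test. The basal-like levels of Sprr1b and Sprr1a were read as background in both genotypes, so no fold is given for these genes. Sprr1a was at 6.67 CPM in differentiating-like and 0.302 CPM in basal-like cells. Sprr2h had 8 UMIs in differentiating-like and none in basal-like cells of Ctrl, and Sprr2d had 3 and none. These 3 genes reached the fit through their counts in differentiating-like cells, so no test is given for them.

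In TKO, where 25.8% of all genes were higher in differentiating-like cells, Sprr1b (mean 787 against 1.64 CPM, adjusted p = 2.095e-07) passed the edgeR test. Sprr1a was at 59.4 CPM in differentiating-like and 0.362 CPM in basal-like cells. Sprr2h had 243 UMIs in differentiating-like cells and 1 in basal-like cells, and Sprr2d 56 and 1. Sprr2a3 did not pass: at 24.5 CPM in differentiating-like and 32.2 CPM in basal-like cells of TKO its log2 difference was -0.29 (SE 0.34, adjusted p = 0.510). Between hair follicle-like and basal-like cells no member passed in Ctrl, and in TKO Sprr2a3 was lower in hair follicle-like cells (log2 -1.73, SE 0.38, edgeR adjusted p = 0.00986, where 15.6% of genes were lower), a call that was lost when doublets were kept (log2 -0.37, adjusted p = 0.420), when cells needed 3000 genes (log2 -0.097), at Leiden resolution 2 (log2 -0.11) and without the library block, where the difference stayed as large (log2 -1.80, adjusted p = 0.0612). Whether these class differences themselves differed between the genotypes was not tested.

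Sprr3 was seen only in a small cluster of 72 cells led by Psca, Mal, Krt19, Krt4 and Krt13, genes of periderm, the transient outer layer of embryonic skin. The cluster had 1 and 2 cells in Ctrl and 37 and 32 in TKO, and it was not of 1 kind. All 3 Ctrl cells held Psca and Krt4, but in TKO Psca was found in 3 of 37 and 0 of 32 cells and Krt4 in 2 and 0. Krt7 and Cldn6, also on the list of periderm markers, were found in 35 and 29 and in 19 and 11 TKO cells, with Cldn6 in no Ctrl cell. The basal keratin Krt14 was found in 35 and 29 TKO cells. Most TKO cells of the cluster thus lacked Psca and Krt4 but held Krt7. Sprr3 had 4 and 18 UMIs in the Ctrl cells and 0 UMIs in all TKO cells. Sprr1a had 57 UMIs in the 1 cell of Ctrl replicate 1 and 242 UMIs in the 2 cells of Ctrl replicate 2, against 146 UMIs in 3 of 37 cells and 42 UMIs in 2 of 32 cells of TKO. With so few Ctrl cells no comparison was made.

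The summed level of the periderm markers was higher in TKO in differentiating-like and basal-like cells, and its part in the Sprr values was not tested. The 8 periderm markers summed to 4.11 and 4.59 CPM in differentiating-like cells of Ctrl and to 169 and 281 CPM in those of TKO, with 4 of 8 higher in both TKO libraries, and most of the sum was Krt6a (0.354, 0.644, 135 and 270 CPM), a keratin that wounded epidermis also uses. Krt4 was at most 0.242 CPM and Krt13 at most 0.491 CPM in any of these libraries. In basal-like cells the sum was 8.18 and 9.48 CPM in Ctrl and 43.4 and 21.3 CPM in TKO, with 3 of 8 markers higher in both TKO libraries. Most of it was Krt7 (5.18, 6.41, 38.1 and 18.9 CPM), while Krt8 and Krt13 were lower in both TKO libraries. In hair follicle-like cells the sums of the genotypes overlapped (20.2, 25.8, 108 and 22.2 CPM). The 9 immune markers summed higher in both TKO libraries in each of the 3 classes, at 3.04, 5.01, 8.32 and 10.1 CPM in basal-like cells (6 of 9 markers higher in both), 2.12, 2.82, 4.77 and 7.72 CPM in differentiating-like cells (5 of 9) and 12.6, 15.2, 39.2 and 48.8 CPM in hair follicle-like cells (7 of 9), and their part was not tested either. The 6 melanocyte markers summed to 5.93 and 6.28 CPM in differentiating-like cells of Ctrl and to 16.3 and 10.4 CPM in those of TKO, with 4 of 6 higher in both TKO libraries and Tyrp1 at 0, and their part was likewise not tested. Sums were also higher in both TKO libraries for melanocyte markers (6.80, 7.15, 9.70 and 7.76 CPM) and endothelial markers (2.18, 1.95, 4.15 and 2.59 CPM) in basal-like cells and for erythroid markers in differentiating-like cells (28.4 and 39.2 CPM, against at most 23.1 CPM in Ctrl). The same held for muscle markers in hair follicle-like cells (0, 0, 0.737 and 0.212 CPM), where erythroid markers were at 14.2, 20.5, 15.1 and 398 CPM. Sums were lower in both TKO libraries for fibroblast, Schwann and Merkel markers in basal-like cells. They were also lower for melanocyte and Schwann markers in hair follicle-like cells.

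In single differentiating-like cells of TKO, Sprr1a and Sprr2h were often found together with Sprr1b. At 5000 UMIs per cell, 17 of the 26 cells with Sprr1a in TKO replicate 1 also had Sprr1b (65.4%, against 25.1% of the rest), and 36 of 50 in TKO replicate 2 did (72.0% against 52.8%). Of the cells with Sprr2h, 4 of 5 and 14 of 15 had Sprr1b. Of the cells with Sprr2a3, 1 of 10 and 30 of 49 had it (10.0% and 61.2%, against 30.4% and 54.3% of the rest). Among TKO basal-like cells, 80 and 95 cells had Sprr2a3 and 1 and 0 of these had Sprr1b. These counts describe cells of single libraries and were not tested.

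The rest of the family was sparse. Of the 9 other Sprr genes on the list, 2 had enough UMIs for the fit in differentiating-like cells and none passed it. Sprr2k had no UMI in either Ctrl library and 8 and 13 UMIs in the TKO libraries (edgeR adjusted p = 0.0676), and Sprr2j-ps had 6 and 1 UMIs from Ctrl, against 11 and 20 from TKO (log2 2.69, adjusted p = 0.103). Sprr2e, Sprr2f, Sprr2g and Sprr2i did not exceed 0.425 CPM over the keratinocytes of any library, and Sprr4 had no UMI. In differentiating-like cells Sprr2g had 1 and 1 UMIs from Ctrl, against 2 and 23 from TKO. Sprr2i had 0 and 0 there, against 4 and 2, while Sprr2e and Sprr2f had at most 1 UMI in any library. In basal-like cells of TKO neither Sprr2k nor Sprr2j-ps had a UMI.

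Other precursors of the cornified envelope in differentiating-like cells were set beside the Sprr genes. Of 42 symbols on that list 13 had enough UMIs to be tested between the genotypes, 1 rose and none fell, where 1.11% of all genes rose and 0.442% fell in this class. The gene that rose was Csta2, a cystatin of the stefin A family, at 0.531 and 0.805 CPM in Ctrl and 11.4 and 6.39 CPM in TKO (log2 3.68, adjusted p = 0.0282), a call lost without Ctrl replicate 1, where the log2 change was 3.37 (adjusted p = 0.0528). In each fit without 1 library the genotype left with 1 library is assumed to vary like the other. Loricrin (Lor), a main envelope protein, was at 111 and 20.2 CPM in Ctrl and 173 and 161 CPM in TKO (edgeR adjusted p = 0.446), and involucrin (Ivl) at 2.39, 0.242, 8.70 and 6.74 CPM (adjusted p = 0.214). Ctrl replicate 1 stood above Ctrl replicate 2 for both, as it did for Sprr1b. The median log2 change of the list was 0.16, beside 0.00 for all genes tested. Of 15 cross-linking and processing enzymes 13 were tested and none passed, at a lowest edgeR adjusted p of 0.0960. The most abundant of them, Asprv1 and Cst6, a protease and a protease inhibitor of the upper layers, were at 293, 212, 300.3 and 297 CPM and at 121, 62.7, 54.8 and 106 CPM in Ctrl replicates 1 and 2 and TKO replicates 1 and 2. Tgm1 and Tgm3, transglutaminases that join SPRR proteins to the envelope, were at 33.0, 26.0, 42.6 and 41.0 CPM and at 32.6, 20.2, 23.6 and 29.1 CPM in the same order.

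In basal-like cells, where 8.65% of genes rose and 4.88% fell, 3 of the 9 envelope precursors tested rose and 1 fell. Csta2 rose from 0.460 and 0.606 CPM to 3.32 and 3.30 CPM (log2 2.63, edgeR adjusted p = 0.00513), Lor from 6.96 and 7.82 CPM to 11.8 and 16.2 CPM (log2 0.93, adjusted p = 0.0353) and Dmkn, a secreted protein of the upper layers, from 949 and 914 CPM to 1333 and 1379 CPM. Evpl (envoplakin), a scaffold of the envelope, fell by 0.79 on the log2 scale. Of 12 enzymes tested, Padi3 and Spink5 rose and Tgm5 fell. Counts of the lists moved with single libraries: without Ctrl replicate 2, 10 of the list genes passed in basal-like cells instead of 22, and without TKO replicate 2, 15 instead of 7 passed in differentiating-like cells.

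AP-1 genes were examined because the letters their products read stood in most Sprr promoters. None of the 8 AP-1 genes passed the edgeR test in differentiating-like cells (lowest adjusted p = 0.226), and Fosl2 fell in basal-like cells (log2 -0.61, adjusted p = 0.0436) and in hair follicle-like cells (log2 -1.32, adjusted p = 0.0194). Jun was at 375 and 892 CPM in differentiating-like cells of Ctrl and 1150 and 224 CPM in those of TKO, and Fos at 266, 817, 535 and 188 CPM, so that Ctrl replicate 2 and TKO replicate 1 were high for both.

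Of 25 other transcription factors of terminal differentiation, 24 were tested in differentiating-like cells, 1 rose and 1 fell. Hopx, a homeodomain protein of the upper layers, rose from 17.7 and 15.9 CPM to 130 and 248 CPM (log2 3.43, edgeR adjusted p = 0.0224), and Pou3f1, a POU factor of differentiating keratinocytes, fell from 210 and 273 CPM to 28.0 and 55.6 CPM (log2 -2.57, adjusted p = 0.0421). In basal-like cells 7 of 22 fell and none rose, among them Maf, Pou3f1 and Ets1 (log2 -2.20, -1.86 and -1.77), and in hair follicle-like cells 10 of 23 fell and none rose, among them Pou3f1, Klf5 and Prdm1 (log2 -2.31, -1.63 and -1.59). In hair follicle-like cells, where 3.02% of genes rose and 2.67% fell, TKO also had lower Krtdap and Ppl (log2 -1.53 and -1.25), 2 of the 8 envelope precursors tested there, whereas Sprr2a3 was higher in those cells of TKO. The genes called in hair follicle-like cells over all lists numbered 17, but 1 and 2 when Ctrl replicates 1 and 2 were left out and 35 and 43 when TKO replicates 1 and 2 were, counts that rest on the spread of the 1 genotype left with 2 libraries. Without Ctrl replicate 1 the log2 change of Klf5 was -1.86 and that of Prdm1 -1.81, so that these calls were lost with no smaller change.

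Targets of the stress factor NRF2 and keratins of stressed or outer epidermis were the remaining lists. Hmox1, heme oxygenase, rose in differentiating-like cells from 8.23 and 5.39 CPM to 31.8 and 30.5 CPM (log2 2.10, edgeR adjusted p = 0.0273), as 1 of 9 NRF2 targets (1.11% of all genes rose in this class). Hmox1 was also a leading gene of the immune-like cells, of which the Ctrl libraries had 64 and 97 and the TKO libraries 244 and 281, and the immune markers of the keratinocyte classes are given above; their part in the Hmox1 values was not tested. Of the NRF2 targets, 4 of 7 rose in basal-like cells, where 8.65% of all genes did (Slc7a11, Hmox1, Gclm and Txnrd1, log2 2.32, 1.92, 0.79 and 0.64). Krt6a rose with a log2 change of 8.69 (adjusted p = 0.00875) and Krt6b with 7.54 (adjusted p = 0.0359) in differentiating-like cells, 2 of 6 keratins tested there, while in basal-like cells Krt7 rose (log2 2.30) and Krt8 fell (log2 -3.22). Of 10 injury-response genes tested Lcn2 alone rose, from 2 and 1 UMIs to 18 and 35 UMIs (log2 4.55, adjusted p = 0.0263), a call lost when any 1 of the 4 libraries was left out (adjusted p 0.0559 to 0.124), though the log2 change stayed at 4.40 to 4.68.

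Around the Sprr genes, 87 other genes are annotated within 1 Mb, and 11 of them were tested in differentiating-like and 7 in basal-like cells. Crct1, a cysteine-rich gene of the same complex that starts 576.9 kb from Sprr1b, passed in differentiating-like cells with 1 UMI in each Ctrl library and 88 and 205 UMIs in the TKO libraries (log2 7.50, SE 0.47, edgeR adjusted p = 0.00875). The call was lost when cells needed 3000 genes (log2 0.43, adjusted p = 0.857). Lor was the 1 neighbour called in basal-like cells. Gm9774, which starts 9.4 kb from Sprr1b and lies among the Sprr genes, had a log2 change of 0.44 in differentiating-like cells (adjusted p = 0.521) and 0.32 in basal-like cells (adjusted p = 0.464). The 1 neighbour raised in each class stands beside 1.11% of all genes raised in differentiating-like and 8.65% in basal-like cells. The median log2 change of the neighbours was 0.55 in differentiating-like and 0.32 in basal-like cells, beside 0.00 and -0.02 for all genes tested.

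**Figure D4:**
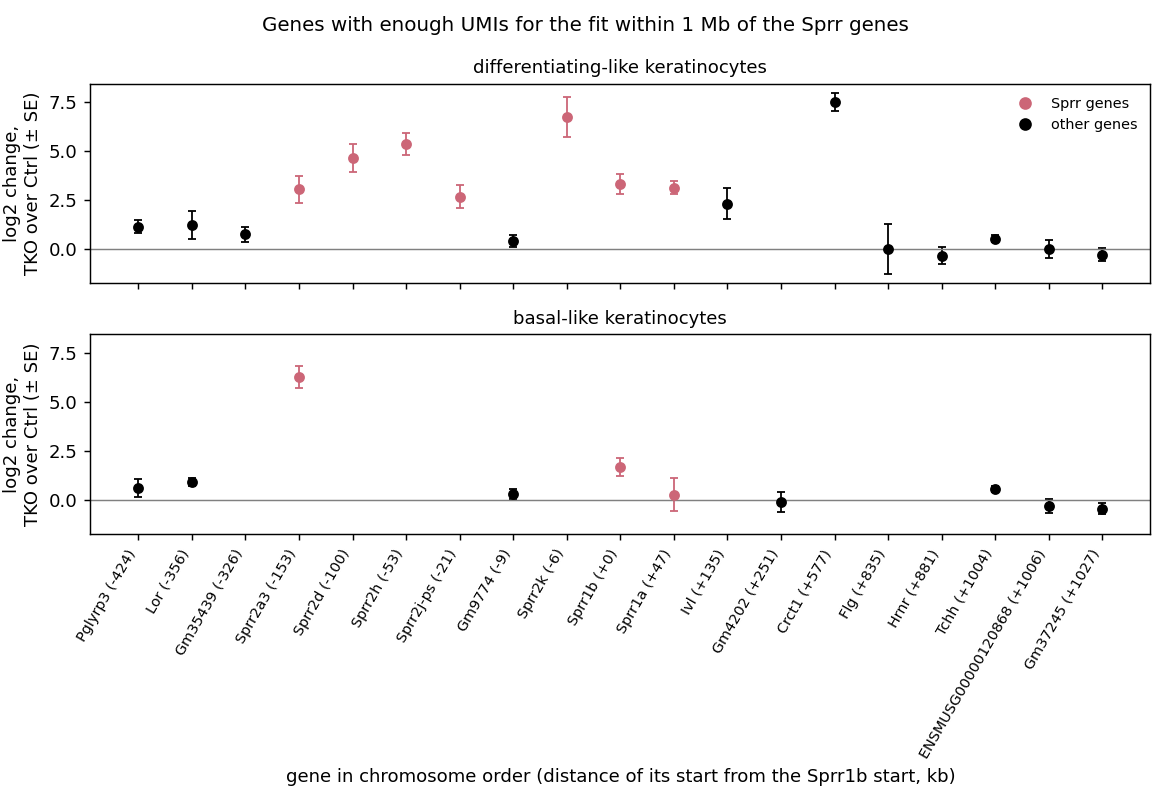
Log2 change of TKO over Ctrl with its standard error (edgeR fit) for the genes within 1 Mb of the Sprr genes that had enough UMIs, in chromosome order, in differentiating-like (top) and basal-like (bottom) keratinocytes; numbers in brackets are kb from the Sprr1b start. The Sprr genes in the upper panel lie between 2.69 and 6.71 and Crct1 at 7.50, while Sprr2a3 at 6.25 stands above all other genes in the lower panel.

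The genes whose pattern was most like that of the Sprr genes depended on the scale of the comparison. Over the 12 sums of 3 classes and 4 libraries, among 10246 genes, the 10 with the highest Pearson r of log2(CPM + 1) with the summed members were led by Gldc (r = 0.988) and Tesc (r = 0.986), with Metap1, Wdr43, Ier3ip1, Trappc5, Ak4, Pdcd6ip, Rala and Hspbp1 behind them. Gldc, which encodes the glycine decarboxylase, had mean levels of 0.529 and 6.60 CPM in basal-like cells of Ctrl and TKO, 19.9 and 71.3 CPM in differentiating-like cells and 0.194 and 4.74 CPM in hair follicle-like cells. Across single keratinocytes at 5000 UMIs, the genes with the highest r, averaged over the 4 libraries, were Ly6g6c (r = 0.594), Sbsn (0.538), Calm4 (0.534), Tmem45a, Elovl4, Rbp2, Hopx, Hspb1, Krt1 and Krt10. The points share libraries and depth, so these r are descriptions.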

How the data were processed

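Per the file headers, the deposited values are UMI counts from Cell Ranger's filtered matrices, and per the labels the build was GRCm39; the authors' use of intronic reads is not given in the sources used here. Barcodes with at least 2000 genes and under 10% mitochondrial UMIs were kept, and the top-scoring barcodes of each library (Scrublet, 0.8% per 1000 barcodes) were left out as doublets. Cells were clustered with 2000 variable genes, 30 components, Harmony over libraries, 20 neighbours and Leiden resolution 1. A round over all cells kept the Sprr genes and set the keratinocytes apart. A later round within the keratinocytes left out the 17 Sprr symbols and the 1228 genes that differed between genotypes over all keratinocytes. Clusters were named from fixed markers, and the periderm-like name was added after the clusters were seen. Counts were summed per library and class and tested with edgeR 4.0.16 (TMM, filterByExpr, quasi-likelihood, Benjamini-Hochberg, adjusted p under 0.05) in R 4.3.3; alternatives included DESeq2 1.42.0, other filters, resolutions and left-out libraries. Simulated counts with known changes were used to test the fits. The members and lists were chosen with earlier results of these data known. Named from each list were up to 4 called genes with the largest change per class, or otherwise 2 of high level, and the 10 genes most like the members; Lor and Ivl in differentiating-like cells, Tgm1, Tgm3 and Gm9774 were named after their values were seen. A gene that this rule names is not reported here. Replicates are separate embryos.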

Additional observations from a re-analysis of the deposited data

Results flagged for a closer look

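In Ctrl both libraries had more Sprr2a3 in differentiating-like than in basal-like cells and in TKO both had less, with a mean log2 ratio of CPM of 3.04 ± 0.95 in Ctrl and -0.59 ± 0.64 in TKO (SD, n = 2 each). The libraries of the 2 genotypes thus lay on opposite sides of 0, but TKO replicate 2 lay only at -0.14, and the edgeR fit without TKO replicate 1, which scales the libraries by TMM, gave 0.049 for it. The difference between the genotypes was not tested.

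Barcodes that failed the cell filter and entered no comparison also held Sprr UMIs above the Ctrl level. There Sprr1b was at 129.6 ± 61.3 CPM in TKO and 21.0 ± 15.3 CPM in Ctrl, Sprr1a at 6.82 and 0.545 CPM, Sprr2a3 at 3.96 and 0.137 CPM and Sprr2h at 0.965 and 0.0453 CPM (means of 2 libraries).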

How the results depend on the processing

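The log2 ratio of the summed members, TKO over Ctrl, kept its direction in every alternative, at 4.198 with 3000 genes per cell and 4.322 without library correction in basal-like cells (4.796 as reported), and at 5.133 with doublets kept, 5.173 with 3000 genes and 4.611 at Leiden resolution 2 in hair follicle-like cells (3.37 as reported). Leaving out 1 library gave 2.246 to 3.704 in keratinocytes, 4.276 to 5.178 in basal-like, 2.945 to 4.082 in differentiating-like and 2.708 to 4.629 in hair follicle-like cells. The share of Sprr1b-positive differentiating-like cells of TKO, 42.3% on average, ran from 29.5 to 55.1%. Of the members called between classes, hair follicle-like against basal-like cells of Ctrl gave 1 instead of 0 with 3000 genes, without correction or without the early-response clusters (chosen after seeing the data), DESeq2 gave 2 instead of 4 for differentiating-like cells of TKO, and hair follicle-like cells of TKO gave 0 instead of 1 with doublets kept, 3000 genes, resolution 2 or no library block, and 2 without a filter. Leaving out 1 library gave 3 to 4, 4 to 4, 0 to 0 and 1 to 1 calls in differentiating-like and hair follicle-like cells of Ctrl and TKO. These counts include Sprr1a, Sprr2h and Sprr2d, which reached the fit through differentiating-like cells, so no stability is read from them. Differences that did not pass changed sign for Sprr2a3 in differentiating-like cells of TKO (0.049 without TKO replicate 1, -0.9113 without TKO replicate 2) and for Sprr1b in hair follicle-like cells of TKO (0.158 with 3000 genes, 0.138 without correction, 0.208 without TKO replicate 1, -2.356 without TKO replicate 2). List genes called numbered 15 in keratinocytes (27 with DESeq2), 22 in basal-like cells (43 without a filter), 7 in differentiating-like cells (15 without correction, 18 with DESeq2, 50 without a filter) and 17 in hair follicle-like cells (28 with doublets kept, 28 with 3000 genes, 31 at resolution 2, 32 without a filter), with ranges of 3 to 34, 10 to 31, 8 to 15 and 1 to 43 when 1 library was left out. Same-numbered libraries did not deviate together (correlation -0.12 to -0.28), so the replicate block pairs libraries by number alone; with it 2 list genes were called in differentiating-like cells. A crossed block, added after seeing the data, gave 49, 35, 34 and 27. The causes were not tested. With 2 embryos per genotype and at most 39 keratinocyte UMIs per library for Sprr2b and Sprr2d, small differences were not detectable at this depth.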
